A study of Mus musculus with 6 samples.

Results

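The 51 genes described here build the machinery that copies DNA in S phase, and all 51 were found by symbol among the 55414 genes of the deposited table. They were taken as a named list of replication licensing factors, polymerases, nucleotide synthesis enzymes and targets of the E2F transcription factors, and are grouped below by role. Bulk RNA sequencing covered liver natural killer (NK) cells, lymphocytes of the innate immune system that kill infected and tumour cells, of WT mice, in 2 groups of 3 libraries labelled day 3. The metformin group had received metformin, an antidiabetic drug, at 200 mg per kg for 3 days, and the control group PBS, the saline vehicle. Strain, sex, age, pooling of animals and the NK cell gate are not stated. The labels do not state whether each library is a mouse of its own, so every p below reflects the scatter among these 6 libraries, and that scatter may be technical.

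Before a cell copies its DNA, the origin recognition complex, Cdc6 and Cdt1 load the Mcm2 to Mcm7 ring onto origins. Cdc45 and the GINS complex then turn that ring into an active helicase, and polymerases, a sliding clamp and its loader follow. Most of these genes are switched on by E2F transcription factors as cells leave G1, and many resting lymphocytes keep them low. In a bulk library, fewer cells in S phase and less of these messages per cell cannot be told apart.

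The promoters of these genes are shown first because E2F sites are what many of them are known to share. The gene list did not use sequence, but it took in E2F targets by name. The share of E2F matches below is thus not independent of how the list was made. RefSeq promoter windows on GRCm38.p6, from 250 bases before to 50 after the annotated start, were available for 42 of the 51 genes. The E2F motif was searched on both strands as TTTCCCGC, TTTCGCGC, TTTGCCGC or TTTGGCGC, with overlapping matches counted separately. It was found in 18 of the 42 genes (42.9%), against 2.6% of the 27025 genes with a window. The CHR motif of genes expressed in G2 and M phase (TTTGAA or TTCGAA) was found in 8 of 42 genes (19%), against 21.7% of all genes. The CCAAT box (CCAAT) was found in 25 of 42 (59.5%), against 41.1%. Matches on opposite strands share bases in Mcm5 and Mcm6, and such pairs were counted as 2 matches.

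Below are the windows of 6 genes that hold the E2F motif, those with the smallest p in the comparison of metformin with control and at most 2 from a role group. Each is written 5′ to 3′ on the strand of its gene, with the E2F matches in capitals. They lie at chr4:136172024-136172323 (plus strand, E2f2), chr17:56304063-56304362 (plus, Uhrf1), chr11:98907901-98908200 (plus, Cdc6), chr1:20820263-20820562 (minus, Mcm3), chrX:93632106-93632405 (minus, Pola1) and chr10:110745189-110745488 (plus, E2f7). E2f2 and Uhrf1 each had 2 windows in the table.
E2f2: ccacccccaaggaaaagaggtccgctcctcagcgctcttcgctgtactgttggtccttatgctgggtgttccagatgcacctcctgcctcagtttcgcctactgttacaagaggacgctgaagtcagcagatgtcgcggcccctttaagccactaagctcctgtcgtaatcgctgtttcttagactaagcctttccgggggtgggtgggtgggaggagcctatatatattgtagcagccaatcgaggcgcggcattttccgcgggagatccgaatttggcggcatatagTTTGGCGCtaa
Uhrf1: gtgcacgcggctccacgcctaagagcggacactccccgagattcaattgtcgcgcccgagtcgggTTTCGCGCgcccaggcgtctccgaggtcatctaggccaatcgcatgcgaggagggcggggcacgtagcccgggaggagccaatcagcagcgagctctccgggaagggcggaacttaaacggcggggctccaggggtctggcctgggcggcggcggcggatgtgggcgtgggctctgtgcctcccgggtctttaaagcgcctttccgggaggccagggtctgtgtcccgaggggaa
Cdc6: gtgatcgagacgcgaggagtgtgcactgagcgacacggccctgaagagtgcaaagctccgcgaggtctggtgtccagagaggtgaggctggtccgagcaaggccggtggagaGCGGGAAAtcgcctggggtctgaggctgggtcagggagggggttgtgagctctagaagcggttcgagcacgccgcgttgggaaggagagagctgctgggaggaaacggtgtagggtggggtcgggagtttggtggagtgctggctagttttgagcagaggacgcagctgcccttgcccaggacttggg
Mcm3: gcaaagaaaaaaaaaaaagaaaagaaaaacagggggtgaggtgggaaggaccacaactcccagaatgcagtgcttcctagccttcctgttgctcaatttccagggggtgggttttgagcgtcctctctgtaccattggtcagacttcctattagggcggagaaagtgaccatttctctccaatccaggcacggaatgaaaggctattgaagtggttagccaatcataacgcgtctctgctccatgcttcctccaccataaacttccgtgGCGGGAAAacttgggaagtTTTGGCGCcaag
Pola1: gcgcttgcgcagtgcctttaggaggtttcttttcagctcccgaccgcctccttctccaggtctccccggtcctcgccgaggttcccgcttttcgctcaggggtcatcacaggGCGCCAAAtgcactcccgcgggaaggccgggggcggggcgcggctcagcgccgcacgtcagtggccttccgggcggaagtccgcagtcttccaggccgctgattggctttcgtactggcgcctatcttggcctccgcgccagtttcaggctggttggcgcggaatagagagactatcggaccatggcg
E2f7: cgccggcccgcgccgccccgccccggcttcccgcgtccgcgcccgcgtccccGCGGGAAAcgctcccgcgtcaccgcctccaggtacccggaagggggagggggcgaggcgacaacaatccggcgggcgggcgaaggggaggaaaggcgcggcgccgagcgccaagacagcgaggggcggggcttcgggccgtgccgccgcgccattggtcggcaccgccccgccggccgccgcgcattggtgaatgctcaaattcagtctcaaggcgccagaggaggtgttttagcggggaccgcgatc

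Positions are counted from the annotated start, whose base is 1. Mcm3 holds 2 matches, which begin at positions 20 and 39, and the match of E2f2 begins at position 40. The matches of Cdc6 and Pola1 both begin at position -138, that of Uhrf1 at -185 and that of E2f7 at -198. Of the 24 matches in all 18 genes, 15 had their centre within 100 bases of the start. The 18 genes with a match had a median log2 fold change (metformin over control) of -0.34, and the 24 genes without one -0.31. At an unadjusted p under 0.05, 6 of the 18 and 6 of the 24 were lower, against 5.08% of all genes. The CCAAT box split the same genes into 25 that hold it, with a median of -0.42 and 9 lower at an unadjusted p under 0.05, and 17 that do not, with a median of -0.23 and 3 lower. For the CHR motif the medians were -0.36 in the 8 genes with a match, 3 of them lower, and -0.31 in the 34 without, 9 of them lower. None of these splits was tested. A match is a description of the letters and not evidence that a factor binds there.

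**Figure D1:**
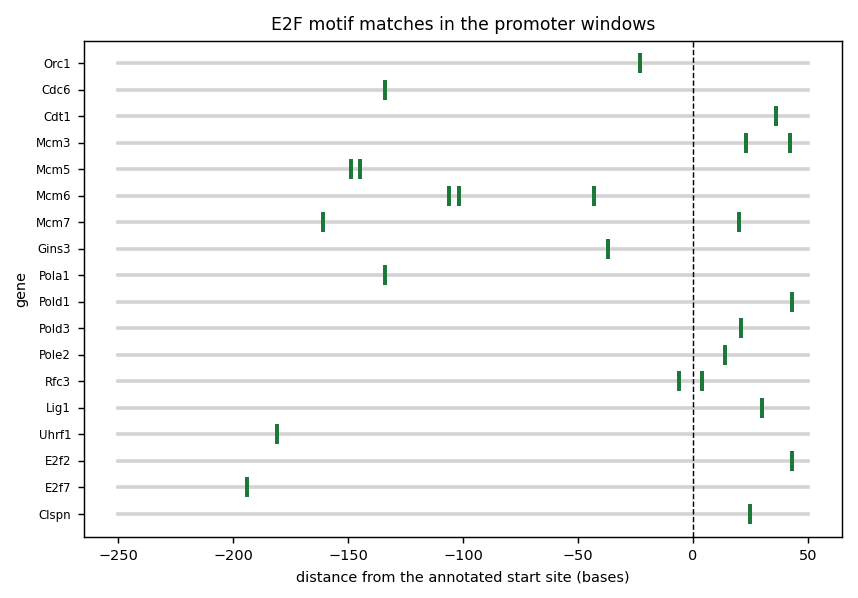
Matches to the E2F motif (green ticks, centre of each match) in the promoter windows of the 18 genes that hold one, by distance in bases from the annotated start site (dashed line); each grey bar is a window of 250 bases before to 50 after the start. Of the 24 matches, 15 lie within 100 bases of the start.

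The libraries held 22983788, 24266803 and 22152167 estimated reads in metformin 1, 2 and 3, and 27263681, 24838302 and 30161214 in control 1, 2 and 3. All 3 metformin libraries were shallower (exact permutation test, two-sided, p = 0.1, the smallest value possible with 3 libraries a group). The replication genes took 50850 to 62986 reads per metformin library and 77739 to 87211 per control library. All 10 NK cell markers were detected, and their sum was 15690 to 18464 CPM (reads scaled to library size) in metformin and 15643 to 16707 CPM in control libraries.

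The markers within the NK cell list went different ways, and the sum is mostly that of abundant genes such as Gzma and Nkg7. Eomes, the transcription factor that parts NK cells from liver type 1 innate lymphoid cells (ILC1), had 216, 212 and 208 CPM in metformin and 312, 342 and 329 CPM in control libraries. Its log2 fold change was -0.63, with an adjusted p of 0.168 in edgeR and 6.33e-08 in DESeq2. Itga2, the integrin that marks NK cells in the liver, had 116.8, 153.6 and 86.4 CPM with metformin and 169.2, 196.7 and 188.3 CPM in control. All metformin libraries were below all control libraries for Eomes, Itga2, Prf1 and Tbx21, and above them for Klrb1c and Nkg7. All 7 ILC1 markers were higher in all metformin libraries, and their sum was 1345 to 1406 CPM with metformin and 852 to 963 CPM in control. For T cells (8 markers) it was 110.1 to 302 CPM in metformin and 43.9 to 128 CPM in control libraries, and for B and plasma cells (6 markers) 235 to 868 CPM and 183 to 413 CPM. Markers of Kupffer cells and monocytes (8), the liver's macrophages and their relatives, summed to 491 to 860.1 CPM in metformin and 432 to 620.2 CPM in control libraries. Among them C1qa had 4.25, 3.05 and 9.20 CPM with metformin and 0.295, 1.19 and 1.25 CPM in control, and Adgre1 had 11.4, 11.1 and 14.7 CPM with metformin and 2.504, 7.02 and 6.16 CPM in control. Csf1r of the same list was lower in all metformin libraries. Neutrophil markers (6) summed to 140.1 to 248 CPM with metformin and 112 to 159 CPM in control. Hepatocyte markers (8) summed to 269 to 602 CPM with metformin and 222 to 319 CPM in control, red cell precursor markers (6) to 56.4 to 117 CPM and 59.7 to 115 CPM, and endothelial markers (6) to 80.8 to 103 CPM and 99.5 to 113 CPM. No marker of these lists was at 0 in every library. Eomes, Itga2, the ILC1 markers and some T cell and macrophage markers thus moved with the groups. The part of these and other cells in the results below was not tested.

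No replication gene passed the test adjusted over all genes, though most lay somewhat below control. Of the 51 genes, 49 had a log2 fold change below 0, against 7628 of all 15527 genes tested. The median was -0.29, or 81.8% of the control level, against 0.01 (100.4%) for all genes tested. All 51 passed the filter on low counts. None passed edgeR's quasi-likelihood test adjusted over all genes (adjusted p under 0.05), and neither did any other gene (0% of 15527). The smallest adjusted p among the 51 was 0.269, for E2f2. At an unadjusted p under 0.05 in the same test, 14 of the 51 genes were lower and 0 higher, against backgrounds of 5.08% lower and 5.29% higher over all genes. All 3 metformin libraries were below all 3 control libraries in 18 of 51 genes, against 9.63% of all genes, and above them in 1 gene, Gins4, against 9.49%. The 51 genes moved together over the 6 libraries, with a median correlation of 0.52 between pairs of genes and 87.8% of pairs above 0. The genes in these counts are thus not separate observations. DESeq2, a second count test, called 4 of the 51 lower at an adjusted p under 0.05 (E2f2, E2f8, Rrm2 and Uhrf1), against 0.979% of all 15527 genes. It gave no adjusted p to 3621 of the 15527 and to 1 of the 51, Ung, which could not be called, so that share is understated.

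Libraries within a group were not alike. The chi-square per degree of freedom between 2 libraries of a group was 57.7 and 53.8 for metformin 3 against metformin 1 and 2. It was 13.8 between metformin 1 and 2, and 15.3 to 22.6 between controls. Metformin 3 also had the highest mitochondrial share, 0.72% of counts, against 0.43% to 0.51% in the other libraries. The part of this in the results was not tested. Summed over the 51 genes, the level was 2603, 2628 and 2228 CPM in metformin 1, 2 and 3, and 3211, 3191 and 2597 CPM in control 1, 2 and 3. On this sum control 3 was thus at the level of metformin 1 and 2, control 1 and 2 stood above all others, and metformin 3 was lowest. Other measures placed control 3 above every metformin library. Summed TPM, the authors' level per gene length, was 1880 in control 3 and 1740, 1828 and 1517 in metformin 1, 2 and 3. Log2 CPM minus each gene's mean averaged -0.06 in control 3 and -0.11, -0.13 and -0.30 in metformin 1, 2 and 3. The mean summed CPM was 2486 ± 224 with metformin and 2999.8 ± 349 in control (SD, n = 3 each), a log2 ratio of -0.27. Of the 51 genes, 47 were highest in a control library, 27 of them in control 1, 19 in control 2 and 1 in control 3. Control 1 was the highest library for 52.9% of these genes, against 14.9% of all genes tested. Metformin 3 was the lowest library for 26 of the 51. That count, the 47 and the counts for control 2 and control 3 have no share over all genes beside them. They are thus not read as traits of these genes.

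Without control 1 the median of the 51 genes was -0.25, with 46 of 51 genes below 0. At an unadjusted p under 0.05, 6 of 51 genes were then lower, against 2.9% of the 16049 genes tested, and 0 higher, against 4.52%. Of these 6, Cdc6, E2f2, E2f8, Rrm2 and Uhrf1 were also among the 14 of the whole set, and Rfc1 was not. The 3 metformin libraries lay below both remaining controls in 18 of 51 genes, against 14.7% of all genes. Without control 2 the count was 8 genes, the same 5 among them, against 3.29% of all genes. Without control 3 it was 20 genes, against 4.11%, and in 34 genes all metformin libraries lay below both remaining controls, against 15.1%.

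**Figure D2:**
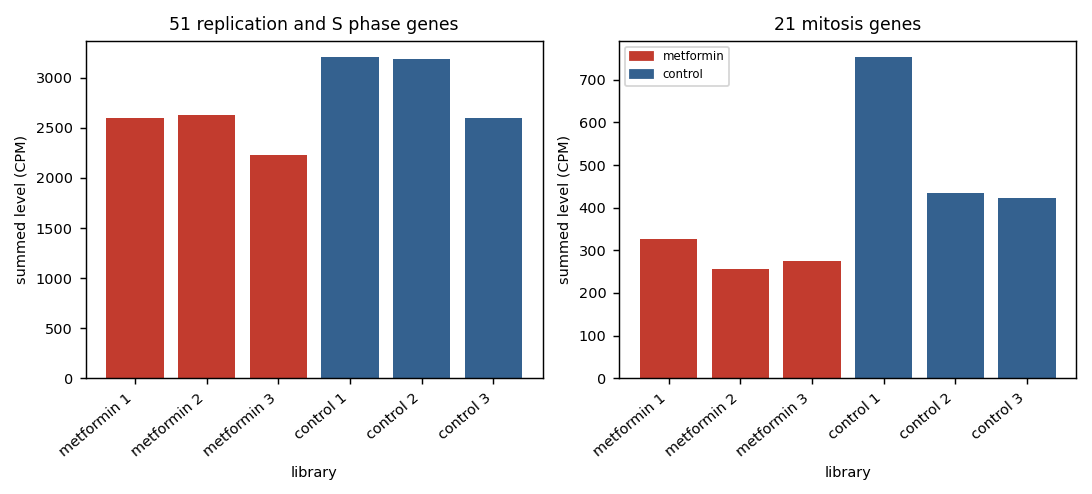
Summed CPM per library of the 51 replication and S phase genes (left) and of 21 mitosis genes (right), metformin libraries in red and control libraries in blue, both axes from 0. Control 1 and 2 stand together on the left (3211 and 3191 CPM) with control 3 at 2597 CPM, while on the right control 1 stands alone at 754 CPM.

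**Figure D3:**
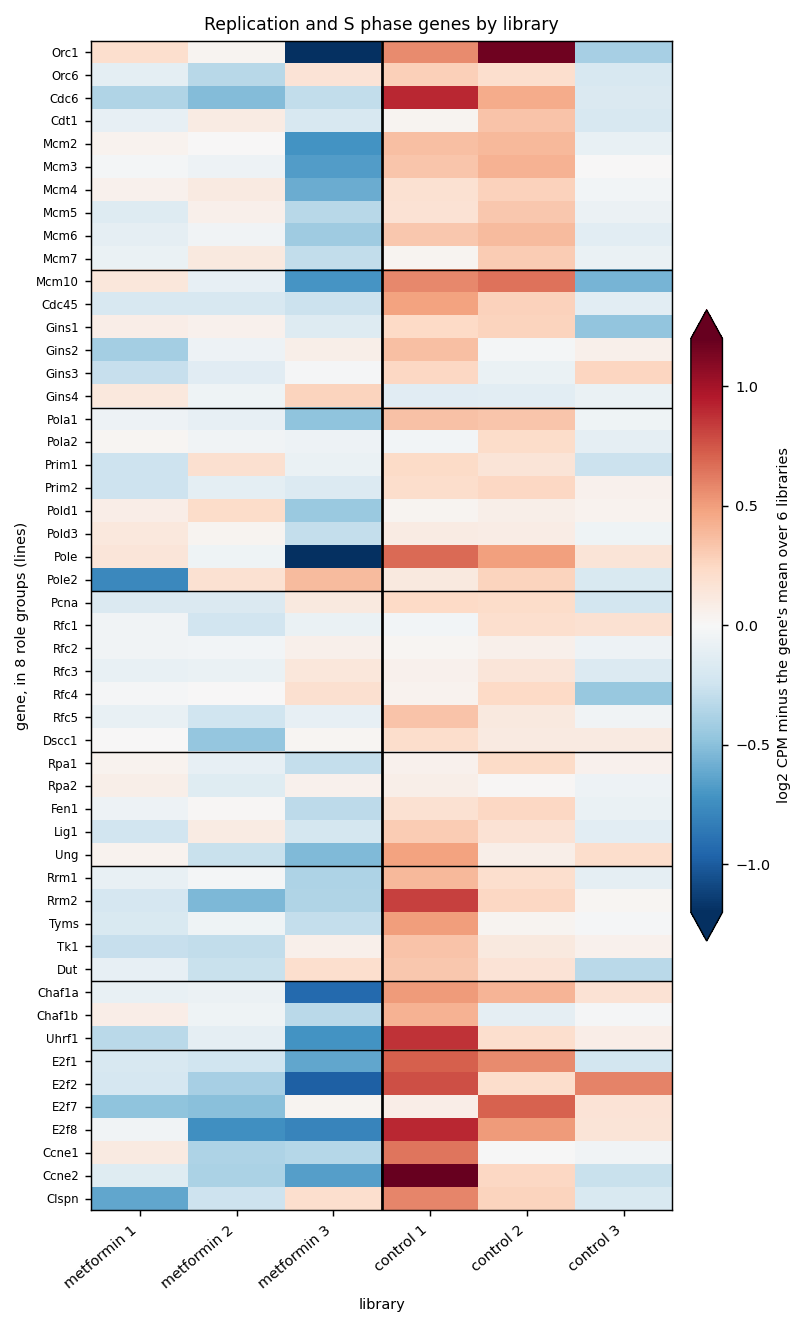
Log2 CPM of each of the 51 genes minus its mean over the 6 libraries, metformin libraries left and control libraries right of the line, with horizontal lines between the 8 role groups; the colours end at 1.2 on either side. Red fills the columns of control 1 and 2, the highest library for 27 and 19 genes, and control 3 is paler.

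Among the licensing factors, which load the helicase ring onto origins, 10 of 10 had a log2 fold change below 0 (median -0.34). Of these, 3 were lower at an unadjusted p under 0.05, against 5.08% of all genes. Cdc6, the loading ATPase, had 11.6, 10.3 and 12.1 CPM in metformin 1, 2 and 3, and 27.8, 20.2 and 13.2 CPM in control 1, 2 and 3. The groups did not overlap, but control 3 was only just above the metformin libraries. Its log2 fold change was -0.85 (SE 0.26; edgeR unadjusted p = 0.011), and -0.57 (SE 0.23) without control 1. Mcm6, the ring subunit with the highest level (149 TPM, the authors' level per gene length), had 279.9, 294 and 224 CPM with metformin and 378, 392 and 276 CPM in control. Control 3 lay within the range of the metformin libraries, and the log2 fold change was -0.39 (SE 0.16). Mcm3 had 111, 108 and 70.8 CPM with metformin and 142, 151 and 113 CPM in control, a log2 fold change of -0.49 (SE 0.19), with groups that did not overlap.

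For each of the 6 ring subunits, Mcm2, Mcm3, Mcm4, Mcm5, Mcm6 and Mcm7, control 2 was the highest library and metformin 3 the lowest. The same held for Orc1, Cdt1, Mcm10, Rpa1 and Fen1, so it was not particular to the ring. No share over all genes stands beside it. Mcm2 had 141, 137 and 83.5 CPM with metformin and 176, 179.6 and 129 CPM in control, so that control 3 was below metformin 1 and 2. Mcm4 had 167, 174 and 107 CPM with metformin and 184, 196 and 158 CPM in control. The log2 fold changes were -0.42 for Mcm2, -0.26 for Mcm4, -0.28 for Mcm5 and -0.17 (SE 0.14) for Mcm7. Cdt1, the partner of Cdc6 in loading, differed little, with 38.3, 43.8 and 35.8 CPM in metformin and 42.0, 52.0 and 35.9 CPM in control libraries. Of the origin recognition subunits, Orc1 had 3.33, 2.96 and 0.920 CPM with metformin and 4.31, 6.57 and 2.18 CPM in control, a log2 fold change of -0.85 with a SE of 0.55. Orc6 had a log2 fold change of -0.20 (SE 0.19), and both overlapped between the groups.

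The 6 factors that activate the helicase had a median of -0.27, and 1 was lower at an unadjusted p under 0.05, against 5.08% of all genes. Without metformin 3 their median was -0.33 and that of the 10 licensing factors -0.25, so the order of these role groups turned with that library. That gene was Cdc45, the helicase cofactor, with 13.0, 12.9 and 12.4 CPM in metformin and 20.7, 18.02 and 13.6 CPM in control libraries. The metformin libraries were close together and all below control, and the log2 fold change was -0.45 (SE 0.19). The 4 subunits of the GINS complex, which works as a single unit, differed from one another. Gins4 had 56.1, 49.6 and 61.7 CPM with metformin and 46.8, 46.9 and 48.7 CPM in control, higher in all 3 metformin libraries, with a log2 fold change of 0.23 (SE 0.11; edgeR unadjusted p = 0.063). With metformin 2 left out, Gins4 was the only 1 of the 51 genes higher at an unadjusted p under 0.05, against 5.49% of all genes. Gins3 had 15.5, 17.02 and 18.6 CPM with metformin and 22.3, 17.7 and 22.5 CPM in control, a log2 fold change of -0.29 (SE 0.15). Gins2 and Gins1 had log2 fold changes of -0.26 (SE 0.17) and -0.05 (SE 0.32). Mcm10, which helps start the helicase, ran from 4.82 to 8.71 CPM with metformin and from 5.37 to 12.5 CPM in control, where control 3 was lowest.

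The 8 polymerase and primase subunits had a median of -0.09. At an unadjusted p under 0.05, 2 of the 8 were lower, against 5.08% of all genes. Both belong to the polymerase alpha and primase complex, which lays down the first primers. Pola1, the catalytic subunit, had 18.1, 17.6 and 13.5 CPM with metformin and 24.0, 23.7 and 18.2 CPM in control, a log2 fold change of -0.42 (SE 0.18). Prim2, the large primase subunit, had 13.4, 14.7 and 14.2 CPM with metformin and 18.4, 18.9 and 16.5 CPM in control, a log2 fold change of -0.35 (SE 0.14). In both genes all metformin libraries were below all control libraries. The other subunits of that complex were nearly level, with log2 fold changes of -0.06 (SE 0.11) for Pola2 and -0.09 (SE 0.17) for Prim1. Pole, the catalytic subunit of the leading strand polymerase, had 20.0, 17.4 and 6.66 CPM with metformin and 29.0, 25.5 and 20.1 CPM in control. Metformin 3 was far below the others, and the log2 fold change of -0.76 had a SE of 0.36. Pold1, the catalytic subunit of polymerase delta and the most abundant of the 8 per length (68.0 TPM), had 128, 141 and 88.8 CPM with metformin and 124, 128 and 125 CPM in control. Its log2 fold change was -0.07 (SE 0.16) and changed sign to 0.09 without metformin 3. Pold3 and Pole2 overlapped too, with log2 fold changes of -0.08 and -0.07.

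The sliding clamp and its loaders had a median of -0.16 over 7 genes. Pcna, the clamp that holds polymerases on DNA and a common marker of dividing cells, had 91.4, 91.3 and 112 CPM with metformin and 122, 119.7 and 88.3 CPM in control. The lowest value was in control 3, and the log2 fold change was -0.16 (SE 0.15). Rfc2, a small subunit of the clamp loader, was the most abundant of all 51 genes per length (202 TPM). It had 161, 162 and 173 CPM with metformin and 169, 173 and 159 CPM in control, a log2 fold change of -0.01 (SE 0.09) whose sign depended on the scaling. Rfc5 had 52.0, 46.9 and 51.5 CPM with metformin and 70.0, 60.1 and 53.9 CPM in control, a log2 fold change of -0.29 (SE 0.12), with all metformin libraries lower. Rfc1, the large subunit, had 38.3, 33.7 and 37.5 CPM with metformin and 38.5, 45.6 and 44.9 CPM in control, a log2 fold change of -0.24 (SE 0.11) that was 0.15 on the deposited TPM. Rfc3 and Rfc4 had log2 fold changes of -0.02 and 0.09. Dscc1, part of an alternative clamp loader, was at 3.00 to 4.25 CPM with metformin and 4.52 to 4.86 CPM in control.

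The single-strand binding proteins, the flap nuclease, the ligase and the uracil glycosylase had a median of -0.23. Of these 5 genes 0 were lower at an unadjusted p under 0.05, against 5.08% of all genes. Rpa1, the large single-strand binding subunit, had 185, 168 and 148 CPM with metformin and 186, 211 and 187 CPM in control. Metformin 1 lay only just below control 1, and the log2 fold change was -0.22 (SE 0.11). Its partner Rpa2 was level, at -0.01 (SE 0.10). Fen1, which trims the flaps of Okazaki fragments, had 74.3, 78.1 and 62.4 CPM with metformin and 88.1, 92.0 and 73.4 CPM in control, with control 3 below metformin 1 and 2. Ung, which removes uracil from DNA, was the least abundant of the 51 per length, with 1.93, 1.54 and 1.27 CPM in metformin and 2.65, 1.97 and 2.18 CPM in control libraries. Its log2 fold change of -0.52 had a SE of 0.34. Lig1, which seals the fragments, overlapped between the groups (log2 fold change -0.23, SE 0.15).

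Enzymes that supply deoxynucleotides were all lower on average, with a median of -0.34 over 5 genes, and control 1 was the highest library for all 5. Rrm2, the S phase subunit of ribonucleotide reductase, had 45.04, 35.7 and 40.3 CPM with metformin and 91.5, 61.6 and 52.6 CPM in control. No metformin library reached the lowest control, and the log2 fold change was -0.76 (SE 0.20; edgeR unadjusted p = 0.0056). It was -0.51 (SE 0.15) without control 1, with an unadjusted edgeR p of 0.011. Rrm1, the large subunit that persists through the cell cycle, had 106, 111 and 87.3 CPM with metformin and 148, 129.8 and 105 CPM in control, a log2 fold change of -0.33 (SE 0.15). Tyms, which makes thymidylate, had 17.8, 19.4 and 16.5 CPM with metformin and 28.6, 20.6 and 20.0 CPM in control. Its groups did not overlap, but its log2 fold change of -0.37 (SE 0.17) was -0.20 without control 1. Dut, which keeps uracil out of DNA, had 28.0, 24.9 and 34.3 CPM with metformin and 37.6, 33.5 and 23.9 CPM in control, and its log2 fold change of -0.12 was 0.01 without control 1. Tk1, the S phase thymidine kinase, was in between, at -0.34 (SE 0.17).

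The 3 genes of chromatin behind the fork had a median of -0.68. Uhrf1, which guides maintenance methylation of new DNA, had 30.8, 35.7 and 23.4 CPM with metformin and 70.1, 44.2 and 40.7 CPM in control, a log2 fold change of -0.78 (SE 0.24). Control 1 was far above the others, and without it the log2 fold change was -0.51 (SE 0.19). Chaf1a, the large subunit of the chromatin assembly factor that places histones on new DNA, had 22.5, 22.7 and 12.5 CPM with metformin and 34.1, 31.6 and 26.9 CPM in control. All metformin libraries were lower and metformin 3 lowest, with a log2 fold change of -0.68 (SE 0.23). Chaf1b, its partner subunit, had 18.4, 16.8 and 13.9 CPM with metformin and 23.3, 16.2 and 17.3 CPM in control, a log2 fold change of -0.21 (SE 0.19) that was -0.04 without control 1.

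The control layer of S phase, made up of E2F factors, E-type cyclins and the checkpoint adaptor claspin, had the lowest median of the 8 role groups, at -0.75. Of its 7 genes 4 were lower at an unadjusted p under 0.05, against 5.08% of all genes. Differences between the role groups were not tested. E2f2, an activating E2F, had 14.8, 12.9 and 8.59 CPM with metformin and 29.3, 19.8 and 25.7 CPM in control. Here control 3 was well above all metformin libraries, and above control 2. The log2 fold change was -1.04 (SE 0.24; edgeR unadjusted p = 0.0021), and -0.92 (SE 0.26) without control 1. E2f8, an E2F repressor that E2F itself induces, had 7.004, 4.30 and 4.12 CPM with metformin and 13.5, 10.3 and 8.04 CPM in control, a log2 fold change of -1.05 (SE 0.30), and -0.85 (SE 0.31) without control 1. E2f1 had 13.6, 13.1 and 10.04 CPM with metformin and 25.6, 23.03 and 13.3 CPM in control. Control 3 lay inside the metformin range, and the log2 fold change was -0.75 (SE 0.26). E2f7, a further E2F repressor, ran from 2.46 to 3.59 CPM with metformin and from 3.72 to 5.79 CPM in control (log2 fold change -0.65, SE 0.31).

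E-type cyclins start S phase with their kinase Cdk2, and Ccne2 was the gene of the 51 whose log2 fold change shifted most without control 1. Ccne2 had 6.22, 5.30 and 4.34 CPM with metformin and 16.0, 8.21 and 5.74 CPM in control, a log2 fold change of -0.92 (SE 0.38) that was -0.41 (SE 0.29) without control 1. Metformin 1 was above control 3 for Ccne2, so the groups overlapped. Ccne1 had 13.8, 9.93 and 10.1 CPM with metformin and 20.1, 12.8 and 12.4 CPM in control, a log2 fold change of -0.42 (SE 0.24), and -0.17 without control 1. Clspn, which carries the checkpoint signal of stalled forks, overlapped between the groups (log2 fold change -0.45, SE 0.34).

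**Figure D4:**
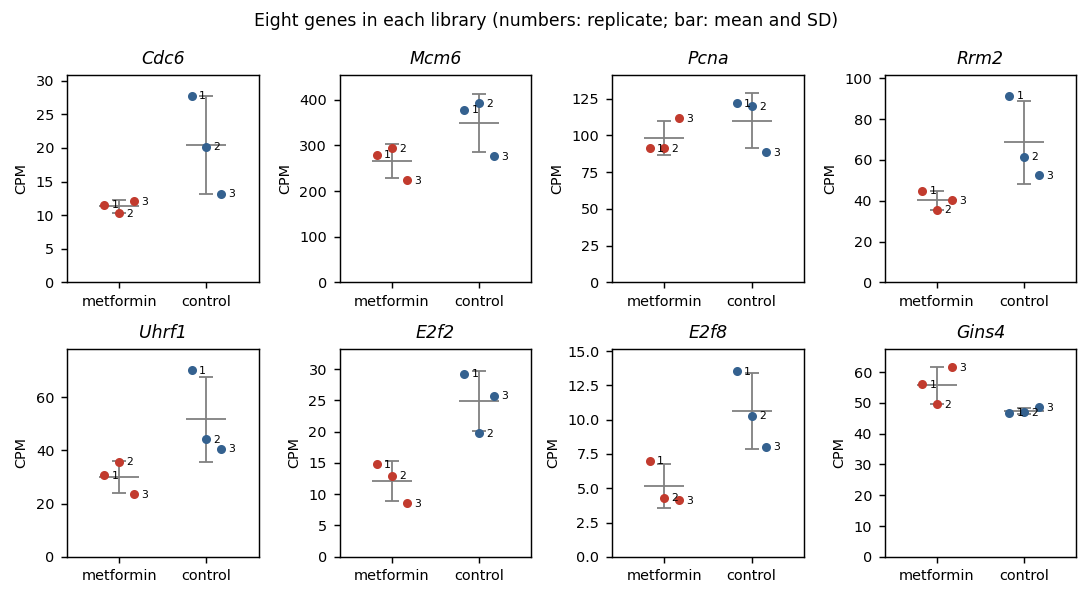
CPM of 8 genes in each library, metformin (red) left of control (blue), with the replicate number beside each point and the mean and SD (n = 3) in grey; every axis starts at 0. For Cdc6, Rrm2, Uhrf1, E2f2 and E2f8 all metformin libraries lie below control, Gins4 is higher with metformin, and Pcna and Mcm6 overlap.

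**Figure D5:**
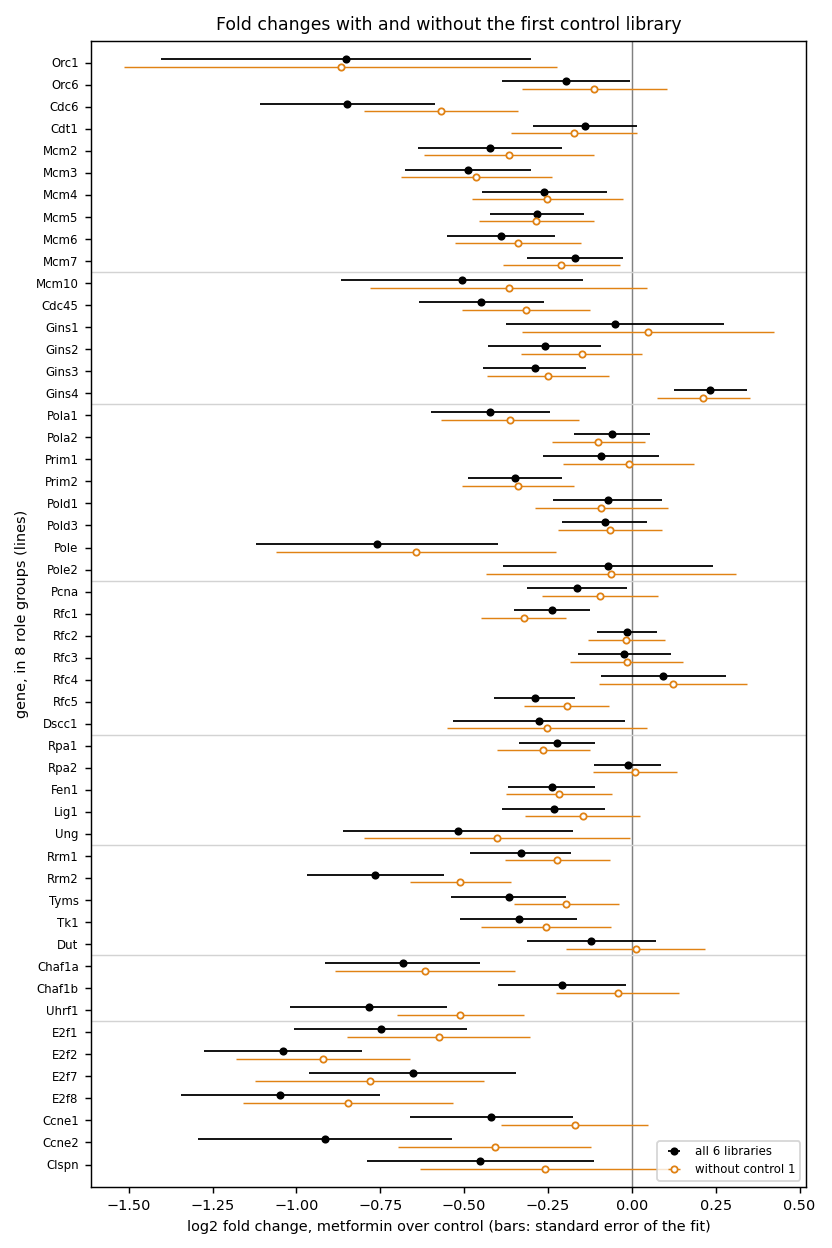
Log2 fold change, metformin over control, of all 51 genes from edgeR with all 6 libraries (black) and without control 1 (orange, open), bars showing the standard error of the fit and lines the 8 role groups. The median is -0.29 with all libraries and -0.25 without control 1, and the largest shifts are in Ccne2, Cdc6, Uhrf1 and Rrm2.

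Gene length ran with these differences. Over the 51 genes the Spearman correlation of length with log2 fold change was -0.46, and over all 15527 genes it was -0.40, a description across genes that share the same 6 libraries. With the length trend of each library removed, the median of the 51 genes was -0.28 and 12 were lower at an unadjusted p under 0.05, against 5.47% of all genes. Of the 51 genes, 14 overlap another gene with at least 1 TPM, among them Rfc2, Cdc45, Chaf1a, Rfc5, Ccne2 and Fen1. Strand use in counting is not stated, so reads of such neighbours may be mixed. Pcna and Tyms have named pseudogenes in the table, at no more than 5.60 and 0.0847 TPM.

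Outside the 51 genes, 97 further genes of the cell cycle were set beside them, from lists of textbook roles. Of these 26 were lower and 2 higher at an unadjusted p under 0.05, against 5.08% and 5.29% of all genes, with a median of -0.26. Mitosis genes made up 18 of the 26. Without control 1 it was 17 lower and 1 higher, against 2.9% and 4.52% of all genes, and 10 of the 17 were mitosis genes. Replication proteins that are not among the 51 had 3 of 35 lower and 1 higher. Hells, a chromatin remodeller of newly copied DNA, had 8.19, 10.1 and 7.23 CPM with metformin and 16.9, 15.2 and 12.9 CPM in control, and Orc3 had 63.6, 73.6 and 68.2 CPM with metformin and 76.2, 87.8 and 81.4 CPM in control. Rnaseh2c, a subunit of the nuclease that removes RNA from DNA, was higher, with 73.4, 69.4 and 84.4 CPM in metformin and 58.4, 55.0 and 59.3 CPM in control libraries. Of 8 other genes of nucleotide supply 0 were lower, and 1 was higher, the mitochondrial thymidine kinase Tk2, with 108, 105 and 113 CPM in metformin and 72.2, 83.6 and 95.9 CPM in control libraries.

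Of 22 genes that control the step from G1 to S, 3 were lower at an unadjusted p under 0.05, against 5.08% of all genes, with a median of -0.09. Tfdp1, a DNA-binding partner of many E2F factors, had 54.7, 52.1 and 48.0 CPM with metformin and 90.6, 80.4 and 69.1 CPM in control. Its log2 fold change was -0.63 (SE 0.12), and its adjusted p over all genes was 0.225 in edgeR's quasi-likelihood test. All 3 controls were above every metformin library, and without control 1 the log2 fold change was -0.55 (SE 0.13). Ccna2, cyclin A2 of S and G2 phase, had 22.4, 17.2 and 15.7 CPM with metformin and 56.9, 30.3 and 28.2 CPM in control. Of 11 replication stress and repair genes 2 were lower, Exo1 (3.37, 4.01 and 2.45 CPM with metformin, 8.28, 8.25 and 5.44 CPM in control) and the checkpoint kinase Chek1 (4.25, 2.71 and 3.64 CPM with metformin, 8.14, 6.94 and 6.03 CPM in control).

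Mitosis genes act after replication. Of 21, 18 were lower at an unadjusted p under 0.05 (5.08% of all genes) and the median was -0.89. For replication genes it was 14 of 51 and -0.29, and the difference between the lists was not tested. Control 1 was the highest library for 21 of 21. The sum was 327, 257 and 276 CPM in metformin 1, 2 and 3 and 754, 435 and 423 CPM in control 1, 2 and 3. Control 3 was above all metformin libraries here. For replication genes it was not on summed CPM, but it was on mean log2 CPM and on summed TPM. On TPM the median of all genes was also lower with metformin. Without control 1 the mitosis median was -0.49 and 10 of 21 were lower, against 2.9% of all genes. Espl1, the protease that parts sister chromatids, had 6.17, 4.34 and 5.30 CPM with metformin and 20.5, 15.7 and 12.5 CPM in control. Top2a, which untangles copied chromosomes, had 45.2, 45.4 and 34.9 CPM with metformin and 125, 79.0 and 63.7 CPM in control. Mki67, the proliferation antigen Ki-67, had 39.9, 32.5 and 30.3 CPM with metformin and 82.3, 53.0 and 59.7 CPM in control.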

How the data were processed

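Per the labels' protocols, total RNA from liver NK cells was made into libraries with SMART-seq mRNA chemistry. DRAGEN, GRCm39 and mm10 appear in the submitters' processing notes, none with a role. The deposited table gives, per library, the authors' estimated count of each gene, with decimals, and the TPM that the authors scaled by gene length. Of the 51 genes, 1 has the same position on GRCm38, so gene coordinates of the table are not printed and promoter windows carry their own build.

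Estimated counts were rounded and tested with edgeR 4.0.16 (glmQLFit, glmQLFTest, TMM, filterByExpr, no covariate) in R 4.3.3 on 15527 genes, with Benjamini-Hochberg adjustment. Standard errors were the log2 fold change divided by the root of the F statistic. CPM used TMM-scaled library sizes. Alternatives were DESeq2 1.42.0, limma 3.58.1, other scalings and filters, the deposited TPM, removal of the length trend by lowess (span 0.3), the replicate number as a block and each library left out. The scripts were tested on simulated counts. The genes, lists and rules were chosen with earlier results of these data known. Values per library were given for up to 3 genes per role group with the smallest p and for the one with the highest TPM, for up to 2 per further list and direction at an unadjusted p under 0.05, and for Mki67 and Top2a; other genes were named after their values were seen. Without molecular identifiers, copies made by PCR count as reads.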

Additional observations from a re-analysis of the deposited data

How the results depend on the processing

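Under every setting run for it the median log2 fold change of the 51 genes stayed below 0, at -0.38 to -0.25 with 1 library left out, and at -0.21 without both control 1 and metformin 3, a setting chosen after seeing the data. The log2 ratio of the summed level was -0.36 to -0.20 with 1 library left out. The count of genes lower at an unadjusted p under 0.05 was 6 to 20 with 1 library left out (2.9% to 6.51% of all genes) and 7 without control 1 and metformin 3 (5.56% of all genes), against 14 of 51, and the count higher was 0 to 1 (3.19% to 5.49% of all genes). Groups did not overlap in 18 to 34 genes with 1 library left out (13.3% to 16.3% of all genes). Of the 97 further genes 17 to 33 were then lower at an unadjusted p under 0.05 (2.9% to 6.51% of all genes).

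Over all genes edgeR called 0 at an adjusted p under 0.05 (1610 at an unadjusted p under 0.05), and 0 to 1 with 1 library left out. DESeq2 called 299, limma-voom with sample quality weights 36, edgeR without a filter 1, with the length trend removed 1, and without control 1 and metformin 3 36. The cause was not tested. Same-numbered libraries correlated at 0.17, 0.08 and 0.17 in their deviations from the group means over all genes, and at 0.23, 0.29 and 0.30 over the 51 genes, where libraries of different numbers lay at -0.25 to 0.04. Over the 51 genes every library correlated best with its own number, over all genes not every one did. The labels do not say that a number marks a shared batch, and the value over all genes was not above 0.1 in every pair, so the numbers were not taken as pairs. With the number as a block edgeR called 3 genes, none of them among the 51, and 16 of the 51 were lower at an unadjusted p under 0.05, against 5.02% of all genes.

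On log2(TPM + 0.1) the median of all genes was -0.10 and that of the 51 genes -0.40, with 7.85% of all genes lower and 3.36% higher at an unadjusted p under 0.05. Signs turned in genes near 0: Pold1 (0.043 with quality weights, 0.095 without metformin 3, 0.083 without control 1 and metformin 3), Rfc1 on TPM (0.15 and 0.16 with pseudocounts of 1 and 0.1), Rfc2 (0.035 with upper quartile factors, 0.00096 with library size only, 4.9e-05 with the 5 CPM filter, 0.0037 with protein-coding genes, 0.12 with the length trend removed, -0.054 to 0.012 with 1 library left out, highest without control 2), Dut (-0.29 to 0.011 with 1 library left out, highest without control 1) and Chaf1b (0.062 without control 1 and metformin 3, and -0.31 to -0.04 with 1 library left out). Genes detected differed by 139 between metformin and control libraries at 1 read, and by -52.7 at 5 reads (exact permutation p = 1 and 0.9). Restricting the E2F motif to 3 of its 4 forms left 18 genes. Non-overlap was not counted for the block or with the length trend removed, which give no scaled values. Below about 5 CPM (Orc1, Ung, Gins1, E2f7, Clspn and Dscc1) standard errors were 0.26 to 0.55, so differences near the median were not detectable in these genes. Pole and Ccne2, with higher mean levels, had standard errors of 0.36 and 0.38, and the part of depth in these errors was not tested.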
